A study of Mus musculus with 6 samples.

Results

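Plasmacytoid dendritic cells are represented here by 10 genes: Siglech, Ccr9, Cd209d, Cd300c and Lag3, which encode surface receptors, Tcf4 and Runx2, which encode transcription factors, and Pacsin1, Cox6a2 and Klk1, which encode proteins of the cell interior or of secretion. They were taken by symbol from the 27761 genes of the deposited table, and each symbol matched exactly 1 row. The table holds messenger RNA levels of mouse bone marrow B220+ cells in 6 libraries, 3 with the genotype label PELI2 knockout (titled PELI2-CKO) and 3 labelled WT. Peli2 encodes a Pellino ubiquitin ligase that acts downstream of Toll-like receptors. The labels used here name no Cre driver, floxed allele, strain, sex or age, and they do not say whether replicates came from separate animals, so the p-values given here measure only the spread among these libraries.

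Plasmacytoid dendritic cells are the immune system's specialised producers of type I interferon: viral nucleic acids reach TLR7 and TLR9 in their endosomes, and the factor IRF7 then switches on interferon genes. They mature in the bone marrow, where the E protein TCF4 (also called E2-2) sets and maintains their identity, and in mice they carry B220 on the surface, so a B220+ fraction of marrow holds them beside the far more numerous B-lineage cells. Several of their genes, among them Spib, Irf8, Tcf4 and Bcl11a, are also used by B-lineage cells, whereas Siglech is known in mouse marrow mainly from plasmacytoid dendritic cells and some of their precursors.

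E proteins bind E-boxes (CANNTG), with CACCTG among the forms they prefer, and RUNX factors bind TGTGGT. RefSeq promoter windows (GRCm38.p6, 250 bases before to 50 bases after a gene's start) were at hand for 7 of the 10 genes: Siglech, Ccr9, Cd209d, Cd300c, Runx2, Pacsin1 and Klk1. CACCTG, or CAGGTG on the other strand, occurred in 4 of the 7, those of Siglech, Ccr9, Cd300c and Klk1, and in 20.2% of all 32851 windows. TGTGGT, or ACCACA on the other strand, occurred in 5 of the 7, with 3 copies in the window of Runx2 itself, and in 16.8% of all windows. The general E-box CANNTG, which includes CACCTG, was in 6 of the 7 and in 72.3% of all windows, and the ETS motif GAGGAAGT, or ACTTCCTC on the other strand, in 0 of the 7 and 3.20% of all. These are matches of letters in a short window, with no measure of binding. The 4 windows with CACCTG are shown for the E-box form they share, and that of Runx2 for its 3 RUNX matches; capitals mark CACCTG or CAGGTG in the first 4 lines and ACCACA in the last.
Siglech (chr7:55767934-55768233, plus strand): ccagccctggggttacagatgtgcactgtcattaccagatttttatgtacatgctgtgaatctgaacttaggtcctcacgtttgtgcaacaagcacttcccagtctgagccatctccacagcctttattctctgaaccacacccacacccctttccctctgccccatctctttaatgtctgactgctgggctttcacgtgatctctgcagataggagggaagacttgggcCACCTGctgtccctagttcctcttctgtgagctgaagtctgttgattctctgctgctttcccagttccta
Ccr9 (chr9:123766961-123767260, plus strand): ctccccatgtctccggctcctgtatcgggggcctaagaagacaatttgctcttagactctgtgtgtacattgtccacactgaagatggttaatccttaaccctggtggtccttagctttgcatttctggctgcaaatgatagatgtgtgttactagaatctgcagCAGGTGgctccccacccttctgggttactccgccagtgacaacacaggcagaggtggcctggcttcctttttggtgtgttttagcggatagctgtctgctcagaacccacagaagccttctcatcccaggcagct
Cd300c (chr11:114960458-114960757, minus strand): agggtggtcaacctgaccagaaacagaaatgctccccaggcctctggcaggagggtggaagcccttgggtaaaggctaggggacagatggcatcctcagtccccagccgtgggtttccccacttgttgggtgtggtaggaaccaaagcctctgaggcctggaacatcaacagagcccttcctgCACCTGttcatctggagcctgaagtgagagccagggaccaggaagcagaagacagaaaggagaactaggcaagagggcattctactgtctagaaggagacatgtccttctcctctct
Klk1 (chr7:44225110-44225409, plus strand): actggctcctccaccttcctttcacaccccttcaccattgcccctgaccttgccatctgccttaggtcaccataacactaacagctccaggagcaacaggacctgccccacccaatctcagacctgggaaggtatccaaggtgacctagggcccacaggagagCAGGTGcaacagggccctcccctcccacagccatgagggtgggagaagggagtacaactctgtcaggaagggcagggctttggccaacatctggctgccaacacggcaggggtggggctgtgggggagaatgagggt
Runx2 (chr17:44814578-44814877, minus strand): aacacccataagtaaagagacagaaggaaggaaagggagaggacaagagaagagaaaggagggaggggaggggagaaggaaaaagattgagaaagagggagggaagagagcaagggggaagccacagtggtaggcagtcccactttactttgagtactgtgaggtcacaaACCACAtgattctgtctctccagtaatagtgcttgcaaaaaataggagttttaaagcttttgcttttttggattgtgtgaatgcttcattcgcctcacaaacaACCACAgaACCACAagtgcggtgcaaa
The first base of the CACCTG match stood at position -20 from the RefSeq start for Siglech, -85 for Ccr9, -67 for Cd300c and -87 for Klk1. Of the 7 RefSeq starts, that of Klk1 is the first base of the gene span that the deposited table gives. The others lie inside their spans, and for Ccr9, Cd300c and Pacsin1 the whole window does.

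The deposited values are FPKM (read fragments scaled by transcript length and library depth), and the smallest steps between low values correspond to depths between 16600000 and 18100000 reads. Ptprc, the gene of CD45 and its B220 form, overlapped between the groups, at 42.8 ± 1.22 FPKM across the libraries labelled PELI2 knockout and 42.5 ± 2.51 FPKM in WT libraries (SD, n = 3 each, as in all that follows). Peli2 was not lower in the libraries with the knockout label: its level was 3.07, 2.70 and 2.47 FPKM there, against 2.03, 2.54 and 1.99 FPKM in WT libraries (two-sided exact permutation test, p = 0.2, where 3 against 3 libraries cannot go below 0.1). A gene-level value does not separate exons, and the row also carries the Entrez ID of a second gene. Over the 12953 genes with FPKM of at least 1 in at least 3 libraries, limma on log2(FPKM + 1) called 3 genes higher and 0 lower at an adjusted p under 0.05 (Benjamini-Hochberg), 0.0232% of the genes tested.

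The 10 genes all passed the expression filter and all had a higher mean in the libraries labelled PELI2 knockout, where 46.4% of all tested genes did, but none passed the test over all genes (limma, adjusted p between 0.1375 and 0.6903). At an unadjusted p under 0.05, 8 of the 10 had a higher mean and 0 a lower one, against 9.2% of all tested genes with a higher mean, 8.88% with a lower one and 18.1% in either direction. The 10 genes were chosen with earlier results of these data known, so such counts describe them and are no test of the list. For the same 8 genes every library labelled PELI2 knockout lay above every WT library, which was so for 11.5% of all tested genes (25.8% had separate groups in either direction); the other two, Tcf4 and Cox6a2, overlapped. The median log2 fold change of the 10 was 0.39, beside -0.01 for all tested genes. The fold changes ran from 0.06 for Tcf4 to 0.78 for Klk1. In these bulk libraries more cells of a type and more RNA per cell cannot be told apart. Each of the 8 separated genes had p = 0.1 in the two-sided exact permutation test over libraries, the smallest value that test can give. With the mean of a granulocyte gene list as a covariate, 1 of the 10 (Cd300c) kept an unadjusted p under 0.05, with a median log2 fold change of 0.31 over the 10. The share of all tested genes with a higher mean at that p was 2.4% in that fit. The summed level of the granulocyte list did not overlap between the groups, so the covariate goes with the group label.

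**Figure D1:**
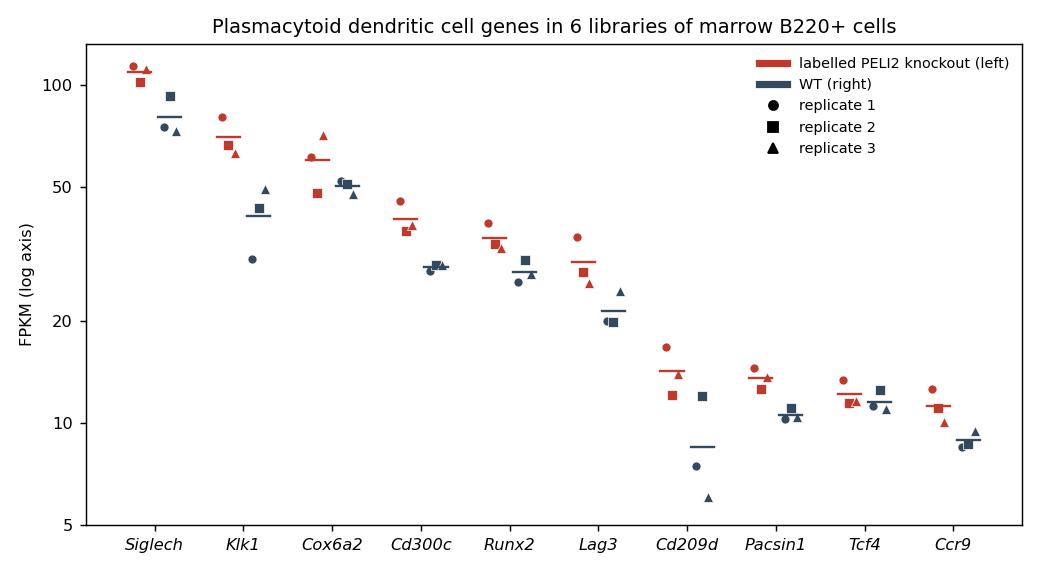
FPKM (log axis) of the 10 genes, ordered by their mean in the libraries labelled PELI2 knockout; red marks on the left of each pair are the 3 libraries labelled PELI2 knockout, dark marks on the right the 3 WT libraries, symbols give the replicate and short lines the mean. For 8 genes the red marks lie wholly above the dark ones, while Cox6a2 and Tcf4 overlap.

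Among the receptors, Siglech (ENSMUSG00000051504, GRCm38 chr7:55768178-55778925) had the highest level of the 10 genes. It encodes a sialic acid-binding lectin that signals through the adaptor DAP12 and dampens interferon output. Siglech stood at 114, 102 and 111 FPKM across the libraries labelled PELI2 knockout against 74.8, 92.7 and 73.0 FPKM in WT libraries. All 3 of the first group were higher than the highest WT library, replicate 2, and the means of 109 ± 6.55 and 80.1 ± 10.9 FPKM gave a log2 fold change of 0.45 with a standard error of 0.10 (limma, adjusted p = 0.150).

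Cd300c (ENSMUSG00000058728, chr11:114956116-114969157), an activating receptor of the CD300 family, had the smallest p of the 10. Its level was 45.2, 36.9 and 38.4 FPKM across the libraries labelled PELI2 knockout and 28.1, 29.3 and 29.3 FPKM in WT libraries. The WT libraries lay close together and the knockout-labelled ones were spread above them, with a log2 fold change of 0.46 and a standard error of 0.08 (limma, adjusted p = 0.138). Lag3 (ENSMUSG00000030124, chr6:124904361-124911705), an inhibitory receptor for MHC class II that activated T cells also carry, stood at 35.6, 28.0 and 26.0 FPKM across the libraries labelled PELI2 knockout against 20.04, 19.9 and 24.6 FPKM in WT libraries. The groups of Lag3 were closest at replicate 3, the lowest library of the first group and the highest WT library (log2 fold change 0.45, standard error 0.13, limma adjusted p = 0.192).

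Ccr9 (ENSMUSG00000029530, chr9:123678439-123784330), the receptor for the gut and thymus chemokine CCL25, was low among the 10 genes. It stood at 12.6, 11.1 and 10.1 FPKM across the libraries labelled PELI2 knockout and 8.52, 8.70 and 9.46 FPKM in WT libraries, close but apart (log2 fold change 0.31, standard error 0.08, limma adjusted p = 0.178). Cd209d (ENSMUSG00000031495, chr8:3871824-3878555), a C-type lectin of the DC-SIGN family, varied most among the receptors. Its level was 16.8, 12.12 and 14.04 FPKM across the libraries labelled PELI2 knockout and 7.49, 12.04 and 6.06 FPKM in WT libraries. WT replicate 2 almost reached the lowest knockout-labelled library, also a replicate 2, and the log2 fold change of 0.72 had a standard error of 0.23 (limma, adjusted p = 0.210). Without WT replicate 2 the log2 fold change of Cd209d was 0.97, and without WT replicate 3 it was 0.53; its unadjusted p stayed under 0.05 in 3 of the 6 fits that each leave out 1 library.

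The transcription factors differed from each other. Runx2 (ENSMUSG00000039153, chr17:44495987-44814797), a RUNX factor that in plasmacytoid dendritic cells serves their exit from the marrow and is otherwise known as the master factor of bone-forming cells, stood at 39.0, 33.8 and 32.9 FPKM across the libraries labelled PELI2 knockout and 26.2, 30.3 and 27.6 FPKM in WT libraries. The groups did not overlap, and the log2 fold change was 0.32 with a standard error of 0.08 (limma, adjusted p = 0.170). Tcf4 (ENSMUSG00000053477, chr18:69343356-69689079), the E protein on which the cell type depends, stood at 13.4, 11.5 and 11.6 FPKM across the libraries labelled PELI2 knockout and 11.2, 12.5 and 10.97 FPKM in WT libraries. The groups of Tcf4 overlapped, with a log2 fold change of 0.06 and a standard error of 0.08 (limma, adjusted p = 0.690). Its sign turned when libraries were rescaled to a common total (-0.0036) or PELI2 knockout replicate 1 was left out (-7.117e-06).

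Of the remaining genes, Klk1 (ENSMUSG00000063903, chr7:44225360-44229618), the tissue kallikrein, is a secreted serine protease. Klk1 stood at 80.5, 66.6 and 62.9 FPKM across the libraries labelled PELI2 knockout and 30.6, 43.2 and 49.1 FPKM in WT libraries. The ratio of the means was 1.71 and the log2 fold change 0.78 with a standard error of 0.18 (limma, adjusted p = 0.151). That was above the 0.72 of Cd209d by less than either standard error. Cd209d came above Klk1 without WT replicate 1 (0.66 against 0.58) and without WT replicate 2 (0.97 against 0.83). It also did so without PELI2 knockout replicate 2 (0.83 against 0.81) and with the granulocyte covariate (0.63 against 0.17). With that covariate the log2 fold change of Klk1 was 0.17, the largest shift of any of the 10 under that fit. Pacsin1 (ENSMUSG00000040276, chr17:27655509-27711106), a membrane-bending F-BAR protein needed in these cells for the interferon response to TLR7 and TLR9 ligands, stood at 14.5, 12.6 and 13.7 FPKM across the libraries labelled PELI2 knockout and 10.3, 11.1 and 10.4 FPKM in WT libraries. The groups did not overlap, and the log2 fold change of 0.33 had the smallest standard error of the 10, 0.06 (limma, adjusted p = 0.142). Cox6a2 (ENSMUSG00000030785, chr7:128205435-128206387), a cytochrome c oxidase subunit otherwise known from heart and skeletal muscle, stood at 61.2, 47.8 and 71.1 FPKM across the libraries labelled PELI2 knockout and 52.0, 50.8 and 47.5 FPKM in WT libraries. PELI2 knockout replicate 2 lay within the WT range and the other two lay above it (log2 fold change 0.24, standard error 0.14, limma adjusted p = 0.404); without that library the log2 fold change was 0.39, with an adjusted p of 0.318.

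On the FPKM scale, which allows levels to be compared between genes, Siglech had the highest level in both groups. In the libraries labelled PELI2 knockout it was followed by Klk1 and Cox6a2, whose ranges overlapped, by Cd300c, Runx2 and Lag3, each overlapping the next, and by Cd209d, Pacsin1, Tcf4 and Ccr9, again each overlapping the next. In WT libraries Cox6a2 and Klk1 followed and overlapped, and Cd300c and Runx2 overlapped above Lag3. At the low end in WT libraries Tcf4 and Pacsin1 overlapped, as did Ccr9 and Cd209d. The WT range of Cd209d, 6.06 to 12.04 FPKM, also reached those of Pacsin1 and Tcf4. By mean, Cd209d was seventh of the 10 in the libraries labelled PELI2 knockout, at 14.3 ± 2.36 FPKM, and last in WT libraries, at 8.53 ± 3.13 FPKM.

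PELI2 knockout replicate 1 held the highest value of all 6 libraries for 9 genes, the exception being Cox6a2, which was highest in replicate 3 of that group. The lowest value was in WT replicate 1 for 5 genes, in WT replicate 3 for 4 and in WT replicate 2 for 1, Lag3. The summed FPKM of the 10 genes was 433, 362 and 391.9 in the libraries labelled PELI2 knockout and 269, 311 and 288 in WT libraries. Without PELI2 knockout replicate 1 the median log2 fold change of the 10 was 0.30, with 7 genes at an unadjusted p under 0.05 and a higher mean, beside 6.66% of all genes tested in that fit.

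Dividing each gene by Siglech of the same library removes any scaling of the library. Of the 9 ratios, 8 overlapped between the groups, so the level of these genes relative to Siglech was not separated at 3 libraries per group. The ratio of Cd300c to Siglech was 0.395, 0.363 and 0.345 in the libraries labelled PELI2 knockout and 0.376, 0.316 and 0.401 in WT libraries, with means of 0.368 ± 0.0252 and 0.365 ± 0.0436. Lag3 likewise averaged 0.273 ± 0.0389 and 0.273 ± 0.0615 of Siglech. The exception was Tcf4, whose ratio to Siglech was 0.117, 0.113 and 0.104 in the libraries labelled PELI2 knockout and 0.149, 0.135 and 0.150 in WT libraries. All 3 knockout-labelled libraries were below all 3 WT libraries in that ratio (two-sided exact permutation test, p = 0.1, or 0.514 adjusted over the 9 ratios). Siglech itself was apart between the groups and Tcf4 was not, so the lower ratio can follow from Siglech alone. It is no separate result about Tcf4, and the share of all genes with a separate ratio to Siglech was not computed. Klk1 averaged 0.641 ± 0.0699 of Siglech in the libraries labelled PELI2 knockout and 0.516 ± 0.139 in WT libraries, where replicate 3 alone reached 0.673 (p = 0.3 in the same exact test).

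**Figure D2:**
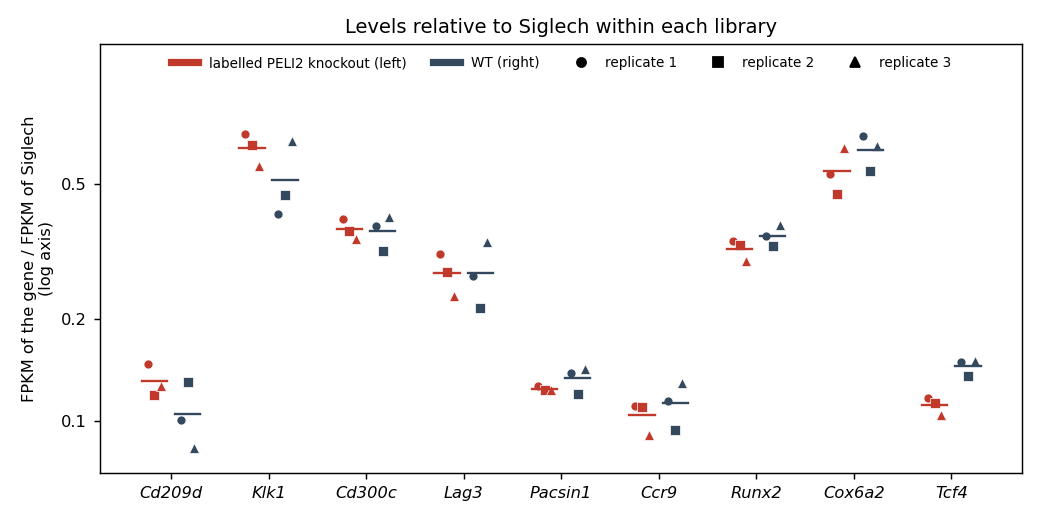
FPKM of each gene divided by FPKM of Siglech in the same library (log axis), with genes ordered by the change of the mean ratio; red marks on the left are the 3 libraries labelled PELI2 knockout and dark marks on the right the 3 WT libraries, and lines are means. Tcf4, at the right edge, is the 1 gene whose groups do not overlap, lower in the libraries labelled PELI2 knockout.

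Relatives of the 10 genes did not all go with them. Cox6a2 was the lesser isoform: Cox6a1, the form of most tissues, stood at 252 ± 11.6 FPKM across the libraries labelled PELI2 knockout and 245 ± 22.2 FPKM in WT libraries, with overlapping groups. Among E proteins Tcf3, which B-lineage cells need, was at 175 ± 6.64 FPKM against 225 ± 31.6 FPKM in WT libraries, and Tcf12 at 12.7 ± 0.679 against 14.6 ± 1.23 FPKM in WT libraries, both with every knockout-labelled library below every WT library. The RUNX relatives lay below Runx2, Runx1 at 12.3 ± 0.309 and Runx3 at 13.6 ± 0.17 FPKM across the libraries labelled PELI2 knockout, against 13.5 ± 0.93 and 12.1 ± 0.469 FPKM in WT libraries. Pacsin2 was at 20.2 ± 1.52 and 18.7 ± 1.27 FPKM in the same order of groups, and Pacsin3 stayed under 1 FPKM in every library.

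Within the receptor families, the B cell lectin Siglecg was at 77.4 ± 3.42 FPKM across the libraries labelled PELI2 knockout against 95.1 ± 12.1 FPKM in WT libraries, the opposite direction to Siglech, and Cd22 at 53.4 ± 2.36 against 57.6 ± 3.65 FPKM in WT libraries. Siglece, known from myeloid cells, had a higher mean as Siglech did, at 10.9 ± 0.803 FPKM against 6.996 ± 0.764 FPKM in WT libraries. Of the 7 tested relatives of Ccr9, the groups were apart for 1, Ccr2, a receptor of monocytes, at 8.60 ± 0.45 FPKM against 5.67 ± 1.006 FPKM in WT libraries. None of the relatives passed the test over all genes (limma). Ccr7, a homing receptor to lymph nodes, exceeded Ccr9 in level, at 135 ± 9.94 FPKM across the libraries labelled PELI2 knockout and 140 ± 13.3 FPKM in WT libraries. In the CD300 family Cd300c had the highest level, followed by Cd300lf at 15.8 ± 0.929 FPKM across the libraries labelled PELI2 knockout and 12.2 ± 1.24 FPKM in WT libraries. Of the CD209 relatives Cd209a, a marker of conventional dendritic cells and monocyte-derived cells, was highest, at 8.44 ± 1.15 FPKM against 5.70 ± 1.85 FPKM in WT libraries, while Cd209b, Cd209e and Cd209g were under 1 FPKM in every library. Of further relatives with a mean of at least 1 FPKM in either group, Cd300a and Cd300lg had every knockout-labelled library above every WT library, while Siglec1, Cd33, Ccr1, Ccr3, Ccr6, Ccr10, Cd209c, Cd209f, Cd300c2, Cd300lb and Cd300ld overlapped. Cd4, the neighbour and structural relative of Lag3 and itself carried by plasmacytoid dendritic cells, stood at 28.0 ± 3.63 FPKM across the libraries labelled PELI2 knockout and 20.1 ± 1.67 FPKM in WT libraries, a log2 fold change of 0.46 beside 0.45 for Lag3.

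Klk1 belongs to a cluster of near-identical kallikrein genes, so its reads can be shared. Of 1072 windows of 50 bases (the read length) in its transcripts, 257 also occur in another annotated gene, most often Klk1b5, with 170. Klk1b5 stood at 0.0273 ± 0.0237 FPKM across the libraries labelled PELI2 knockout and 0.0144 ± 0.025 FPKM in WT libraries. Of the 7 relatives with a row, Klk1b27, which shares 33 windows with Klk1, was the only one to reach 1 FPKM in any library, at 8.20 ± 0.299 FPKM across the libraries labelled PELI2 knockout against 4.47 ± 0.995 FPKM in WT libraries. Its log2 fold change of 0.77 stood beside 0.78 for Klk1 (limma, adjusted p = 0.138 for Klk1b27), and both values are uncertain as far as the authors' counting could split such reads. For Ccr9, 20.1% of the windows recur elsewhere, mainly in the opposite-strand gene AC165425.1, which has no row under that symbol in the deposited table. For Runx2 it was 5.66%, mainly in the antisense gene Runx2os1, which stood at 0.781 ± 0.0988 FPKM across the libraries labelled PELI2 knockout and 0.363 ± 0.261 FPKM in WT libraries. Cox6a2 shares 21 windows of 631 with Itgad on the opposite strand. Strand use is not given in the sources used here, so such reads cannot be told apart. Siglech, Cd209d, Pacsin1, Cd300c, Lag3 and Tcf4 shared under 1% of their windows.

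Other known genes of plasmacytoid dendritic cells gave a mixed picture. Of 31 further genes, 29 passed the expression filter, of which 13 had a higher and 2 a lower mean with an unadjusted p under 0.05, and 0 passed over all genes (limma). Their median log2 fold change was 0.20. Among the higher ones was Cd7, a surface protein of early lymphoid and plasmacytoid cells, at 56.6 ± 4.20 FPKM across the libraries labelled PELI2 knockout and 40.1 ± 4.29 FPKM in WT libraries. Pltp, a phospholipid transfer protein, was at 34.0 ± 5.99 against 23.0 ± 1.69 FPKM in WT libraries, and Lair1, an inhibitory collagen receptor, at 11.8 ± 0.856 against 9.23 ± 0.779 FPKM in WT libraries. Bst2, the antigen of the antibody PDCA-1 and an interferon-induced tether of viruses, stood at 299 ± 32.8 FPKM across the libraries labelled PELI2 knockout and 237 ± 9.89 FPKM in WT libraries. The 2 with a lower mean at that p were Atp1b1, a sodium pump subunit, at 148 ± 11.04 against 203 ± 40.4 FPKM in WT libraries, and Zeb2. The zinc-finger repressor Zeb2, which plasmacytoid dendritic cells need, stood at 12.9 ± 1.22 against 15.4 ± 0.657 FPKM in WT libraries. The genes shared with B-lineage cells did not go one way. Irf8 had a higher mean at that p, 152 ± 12.2 against 129.6 ± 4.22 FPKM in WT libraries. Spib, at 361 ± 18.3 against 454 ± 86.9 FPKM in WT libraries, and Bcl11a, at 18.3 ± 1.003 against 18.01 ± 0.561 FPKM in WT libraries, did not pass it. For Spib every knockout-labelled library still lay below every WT library, while Bcl11a overlapped. Bst2, Atp1b1, Zeb2, Irf8, Spib and Bcl11a were picked by hand once their values were known.

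**Figure D3:**
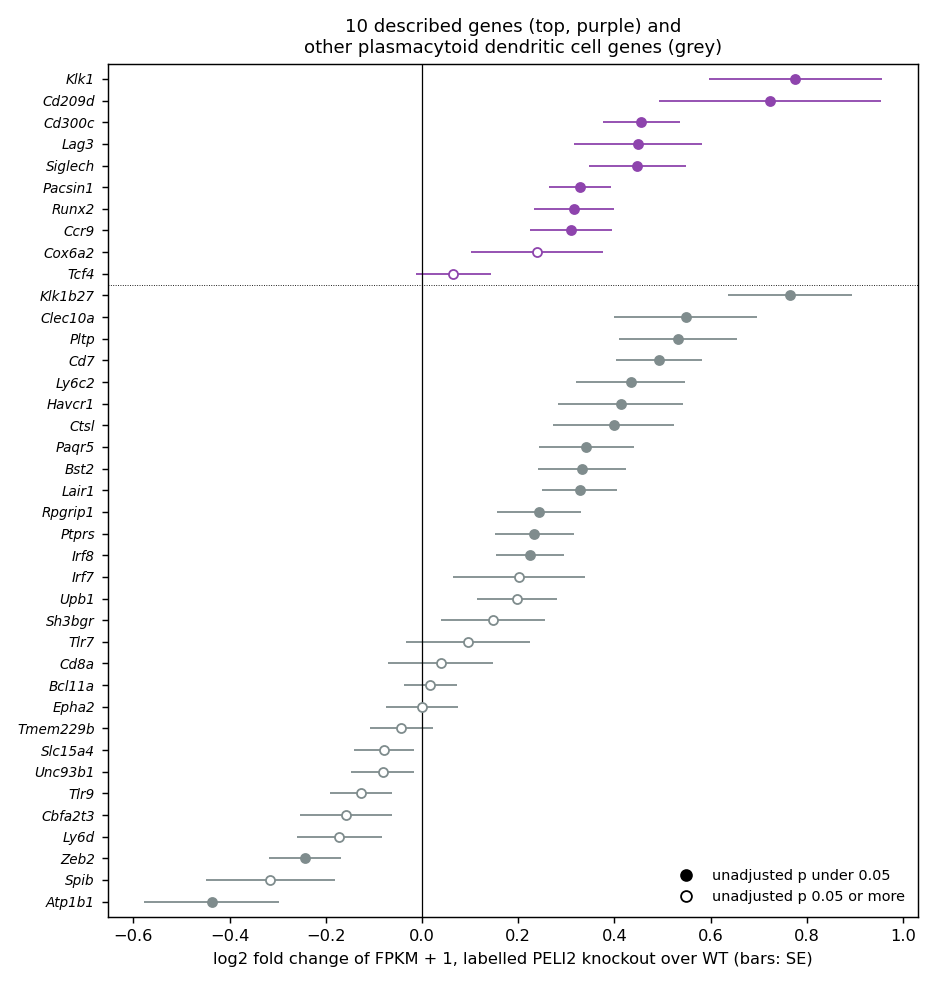
Log2 fold change of FPKM + 1, libraries labelled PELI2 knockout over WT (x axis, bars are standard errors from limma), for the 10 described genes in purple and 29 other tested plasmacytoid dendritic cell genes in grey, each sorted; filled marks have an unadjusted p under 0.05. The purple marks run from 0.06 (Tcf4) to 0.78 (Klk1), and the grey ones spread to both sides of 0.

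Regulators of the lineage were split as well. Of 20 tested, 8 had a higher mean and 5 a lower one with an unadjusted p under 0.05, with a median log2 fold change of 0.04. Flt3, the cytokine receptor on which dendritic cell development depends, stood at 14.0 ± 1.94 FPKM across the libraries labelled PELI2 knockout and 10.2 ± 0.983 FPKM in WT libraries. Nfil3 was at 12.7 ± 0.761 against 9.76 ± 1.18 FPKM in WT libraries, and Spi1 (PU.1) at 60.6 ± 1.71 against 53.8 ± 0.987 FPKM in WT libraries. The other higher means were those of Runx3, Irf8, Etv6, Id1 and Mycl. The 5 lower ones were Tcf3, Tcf12 and Zeb2, given above, Id3 and Cbfb. Id3, an inhibitor of E proteins, was at 23.3 ± 0.944 against 28.8 ± 4.43 FPKM in WT libraries. Cbfb, the partner subunit of RUNX factors, was at 48.4 ± 0.67 against 54.1 ± 3.39 FPKM in WT libraries. Id2, a related inhibitor that opposes the plasmacytoid fate, was at 17.9 ± 0.924 FPKM across the libraries labelled PELI2 knockout and 17.1 ± 0.277 FPKM in WT libraries, overlapping. Beyond the 4 with the smallest p, these regulators were picked once their values were known. The genes that sense nucleic acids on the way to interferon had a median of -0.03, with 3 of 15 having a higher and 0 a lower mean at that p. The 3 were Pld4, an endosomal exonuclease, at 111 ± 9.68 FPKM across the libraries labelled PELI2 knockout against 92.2 ± 4.04 FPKM in WT libraries, Myd88 at 19.3 ± 0.0985 against 17.5 ± 0.484 FPKM in WT libraries, and Irak1 at 24.6 ± 0.512 against 22.3 ± 0.786 FPKM in WT libraries. Traf6 came next by p, with a lower mean. The receptors themselves overlapped: Tlr7 stood at 8.24 ± 0.83 and Tlr9 at 25.6 ± 1.12 FPKM across the libraries labelled PELI2 knockout, beside 7.70 ± 1.37 and 28.0 ± 1.96 FPKM in WT libraries. The 7 interferon genes of types I and III with a row were each under 1 FPKM in every library, and their summed level was 0.338 to 1.28 FPKM across the libraries labelled PELI2 knockout and 0.112 to 0.896 FPKM in WT libraries.

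Marker lists of other cell types also differed between the groups. All 15 granulocyte genes had higher means in the libraries labelled PELI2 knockout, 11 of them with an unadjusted p under 0.05, and their summed level was 11924 to 13930 FPKM there and 7475 to 10392 FPKM in WT libraries. The smallest p-values belonged to the granule proteases and peroxidase of immature granulocytes: Elane stood at 311 ± 28.4 FPKM across the libraries labelled PELI2 knockout and 126 ± 32.2 FPKM in WT libraries. Mpo was at 245 ± 19.5 against 96.1 ± 22.2 FPKM, and Ctsg and Prtn3 had log2 fold changes of 1.65 and 1.57. The 10 monocyte and macrophage genes (6 at that p) and the 10 erythroid genes (5 at that p) were all higher in mean too, with median log2 fold changes of 0.46 and 0.43. The smallest p-values among them were those of F13a1, Ms4a6c, Cd14 and Ccr2, and of the erythroid genes those of Klf1, Gata1 and Epor. B cell markers went the other way: 11 of 12 had lower means and 8 an unadjusted p under 0.05, the sum being 1607 to 1699 FPKM across the libraries labelled PELI2 knockout and 1980 to 2346 FPKM in WT libraries. Ebf1, a founding factor of the B lineage, stood at 30.8 ± 0.825 FPKM across the libraries labelled PELI2 knockout and 42.3 ± 4.38 FPKM in WT libraries, and Pax5 at 84.1 ± 3.53 against 109.9 ± 12.2 FPKM, and Blnk was also lower in mean. The part of these shifts in the result for the 10 genes was not tested. The fit given above cannot separate it, because the granulocyte covariate goes with the group label.

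Some markers bear on genes of the 10 that other cells also use. T cells share Lag3 and Ccr9, and T cell transcripts were present at low levels. Of the receptor complex, Cd3d lay between 1.68 and 2.94 FPKM over the 6 libraries, Cd3g between 0.673 and 1.15 FPKM, and Cd3e and Cd247 under 1 FPKM. The T cell kinase Lck lay between 12.7 and 16.4 FPKM. The 11 tested T cell genes had a median of 0.09, with 1 (Cd4) at an unadjusted p under 0.05, while Cd28, Cd8b1 and Cd5 came next and overlapped between the groups. The 10 NK cell genes had a median of 0.07, with Nkg7, at 45.7 ± 3.47 FPKM across the libraries labelled PELI2 knockout and 30.2 ± 5.07 FPKM in WT libraries, as the 1 at that p, while Klrd1, Gzmb and Klrk1 came next and overlapped. Bone-forming cells share Runx2, and their factor Sp7 was under 1 FPKM in every library, while Alpl, Bglap, Col1a1 and Col1a2 overlapped between the groups. Col1a1 stood at 20.3 FPKM in replicate 3 of both groups, against 4.37 to 6.09 FPKM in the other libraries. Bglap and Col1a2 were also highest in replicate 3 of each group. Conventional dendritic cells had 4 of 7 tested genes with a higher and 2 with a lower mean at that p, with Xcr1, Zbtb46 and Batf3 under 1 FPKM in every library and Clec9a, which precursors and plasmacytoid cells in mice also carry, at 7.28 ± 0.686 FPKM across the libraries labelled PELI2 knockout against 5.56 ± 0.725 FPKM in WT libraries. Itgax also had a higher mean at that p, and Dpp4 and Wdfy4 had lower ones. Of 7 plasma cell genes, 2 had a higher mean at that p (Xbp1 and Jchain) and 2 a lower one (Irf4 and Sdc1).

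**Figure D4:**
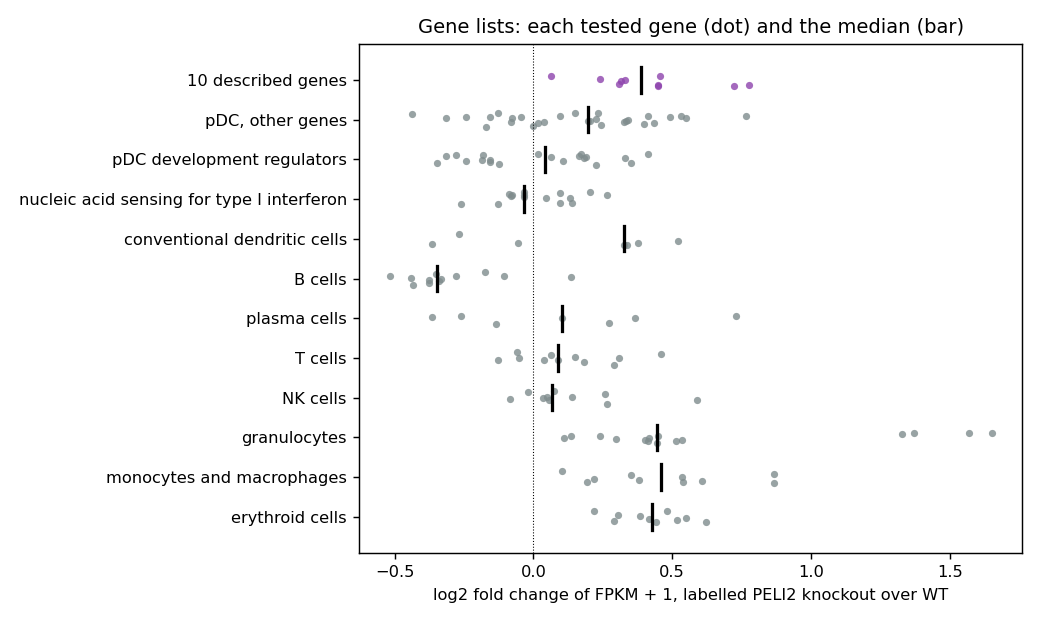
Log2 fold change of FPKM + 1, libraries labelled PELI2 knockout over WT, for each tested gene (dot) of 12 lists, with the list median as a bar; the 10 described genes are purple. Medians are 0.39 for the 10 genes, -0.35 for B cells and 0.45 for granulocytes.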

How the data were processed

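RNA of 6 libraries was sequenced as single-end reads of 50 bases after poly(A) selection, per the labels' protocols. The authors deposited FPKM per gene and library, with no scaling across libraries stated, and the submitters' processing notes list DESeq2 1.4.5, RSEM 1.2.12, HISAT2 2.0.4, Bowtie2 2.2.5 and the build GRCm38.p6, giving neither role nor order. FPKM are not counts, so limma 3.58.1 (R 4.3.3) was run on log2(FPKM + 1) for genes reaching 1 FPKM in 3 libraries or more (eBayes with a trend, two-sided, no replicate block, Benjamini-Hochberg adjustment over all genes tested), which was tested on simulated data. With this pseudocount, fold changes of genes near the filter come out too small. Single values also got an exact permutation test over libraries.

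Depth came from genes with 1 annotated transcript (GENCODE M21): the total was sought at which low FPKM values convert to whole reads, and 99.2% to 99.4% of 3291 to 3484 genes under 5.5 reads came out within 0.03 reads of whole. Taking the shortest annotated transcript as length, each of the 10 genes rests on at least 63 reads in every library. Coordinates of 9 of the 10 match GENCODE M21; that of Pacsin1 ends at another base there, and the file's is given. Promoters are from RefSeq (GRCm38.p6). Figures were drawn with matplotlib 3.10.9.

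The members and the lists were chosen with earlier results of these data known. The ratios to Siglech and the search for shared 50-base windows were chosen after seeing the data. Named genes are the 10 members, Peli2, the up to 4 genes of each list with the smallest p or those that define it, and of each family the highest relative and any with a mean of 1 FPKM or more; a few genes under this rule are not reported here. Alternatives were pseudocounts, filters, scalings, no trend, library weights, a granulocyte covariate, a replicate block and each library left out.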

Additional observations from a re-analysis of the deposited data

How the results depend on the processing

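The 10 genes kept 7 to 9 members at an unadjusted p under 0.05 in the 6 fits without 1 library, beside 6.66% to 9.99% of all genes higher at that p. The median log2 fold change was 0.30 to 0.44, and 8 or 9 genes had separate groups. Groups separate more easily with 1 library fewer, and the share of all genes with separate groups was not computed for these fits. Every other alternative except the granulocyte covariate gave 8 members, beside 5.59% to 10.4% of all genes higher at that p. The granulocyte covariate gave 1 (median 0.31), where the share of all genes was 2.4% against 9.2% without it. Rescaled to a common total, 7 genes were separate, and the median of all genes was -0.08. The share of all genes with separate groups was not computed for that scaling either. None of the 10 genes passed over all genes in any alternative (limma, lowest adjusted p = 0.104). Tcf4 changed sign when rescaled to a common total (-0.0036), and without 1 library its log2 fold change ran between -7.117e-06 (without PELI2 knockout replicate 1) and 0.1205 (without WT replicate 2). The number of genes called over the whole table was 3, against 1 with a filter of 5 FPKM, 6 with eBayes without a trend, 0 with the granulocyte covariate, and 1 to 13 without 1 library (13 without PELI2 knockout replicate 3); the cause was not tested. The labels tie same-numbered libraries by a number only, and whether they were paired is not known. Their deviations from the group means correlated at 0.101, 0.0362 and 0.0901 for replicates 1 to 3. Every library correlated best with its own number, and libraries of unlike number correlated between -0.107 and 4.53e-05. Deviations within a group sum to 0, so a positive value for the same number pushes the others down. The values for unlike numbers are therefore not separate evidence of pairing. With the replicate block 4 genes were called over all genes, and 8 of the 10 genes kept an unadjusted p under 0.05 (limma). Depth limits Cd209d, with at least 70 reads at its shortest transcript and at most 280 at its longest, the lowest such maximum of the 10. Tcf4 has at least 63 reads at its shortest transcript and at most 2075 at its longest, so its number of reads depends on the length taken.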
